A study of Mus musculus with 10 samples.

Results

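Elastic fiber genes were followed in lymphatic endothelial cells (LECs) and in the other cells of mouse ear skin. The genes were listed by their known roles, with earlier results of these data known: *Eln*, *Fbn1*, *Fbn2*, *Efemp1*, *Efemp2*, *Fbln1*, *Fbln2*, *Fbln5*, *Lox*, and *Loxl1*. All 10 were found among the 42600 genes of the plate tables and among the 32285 genes of the droplet tables. LECs were sorted from ear skin on podoplanin and CD31 into 8 plates and sequenced by Smart-seq, a method that reads whole transcripts from 1 cell per well, with 2 plates for each of 4 genotypes. *Tie1* fl/fl and *Tie1* *Tie2* fl/fl pups carried floxed receptor alleles without Cre, and *Tie1* iΔLEC and *Tie1* *Tie2* iΔLEC pups carried the same alleles together with Prox1-CreERT2, a tamoxifen-inducible Cre driven in LECs by the *Prox1* promoter. All 4 groups received 4-hydroxytamoxifen on postnatal days 1 to 5 (P1 to P5). The day of ear analysis, P28, comes from the study's methods, while the labels give the age of these samples only as P1-P5. In each *Tie1* group 1 plate was labeled female and 1 male, whereas the *Tie1* *Tie2* plates were all labeled male. In a second experiment wild-type C57Bl/6j pups received mouse IgG or an Ang2-blocking Ab at 20 mg/kg every 3 days from P16 to P21, and 1 droplet library per treatment was made from CD31-sorted cells. The title of the Ang2 Ab library also holds the word control, so its group was taken from its treatment label.

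Elastic fibers let tissues recoil after stretch. Elastin, the product of *Eln*, is secreted as soluble tropoelastin, is deposited on a scaffold of microfibrils built from the fibrillins, and is then cross-linked by lysyl oxidases. Fibulins bridge tropoelastin, the microfibrils, the cross-linking enzymes, and the cell surface. In blood vessels elastin is made largely by smooth muscle cells and by arterial endothelium, and in cartilage of the ear by chondrocytes. Lymphatic capillaries are tethered to the surrounding matrix by anchoring filaments rich in fibrillin and in EMILIN1.

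The labels were first set against the data. *Prox1* lay between 656 and 1126 CPM (counts scaled to the same total for each plate) and podoplanin (*Pdpn*) between 414 and 748 CPM in the LECs of every plate. The 4 control plates had *Tie1* at 2350 to 2730 CPM, the *Tie1* iΔLEC plates had 635 and 699 CPM, and the *Tie1* *Tie2* iΔLEC plates had 478 and 707 CPM. *Tek*, which encodes Tie2, was at 30.9 and 55.2 CPM in *Tie1* *Tie2* iΔLEC LECs, against 221 to 324 CPM on the other 6 plates. By the quasi-likelihood test of edgeR (Benjamini-Hochberg adjusted) *Tie1* itself was called with Tie1/-2 deletion (adjusted p = 0.00731) but not with Tie1 deletion (log2 fold change -1.92 ± 0.25, adjusted p = 0.258). The plates held 303 to 365 LECs each, 2747 in all, and 67220093 to 104960326 counts. One plate of each genotype came in a table that names genes by symbol and 1 in a table that names them by Ensembl identifier, and a well had a median of 5946.5 to 7023 genes with a read in the former and 3698.5 to 5124 in the latter, so each deletion is also compared within a table layout below. Fibroblast markers (*Col1a1*, *Col1a2*, *Dcn*, *Lum*, and *Pdgfra*) summed to 19.2 to 56.4 CPM in the LECs of 7 plates and to 241 CPM on the first *Tie1* *Tie2* fl/fl plate.

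Promoter windows are shown for the 2 members that were expressed at 10 CPM or more on every plate and whose RefSeq window (GRCm38.p6, the 250 bases before the transcript start) lies outside annotated exons. The RefSeq table had windows for 6 of the 10 genes and none for *Eln*, *Fbn2*, *Lox*, and *Loxl1*. Capitals mark CACCC or its reverse complement GGGTG, the core of Krüppel-like factor motifs.
*Fbln5* (chr12:101819120-101819369, minus strand): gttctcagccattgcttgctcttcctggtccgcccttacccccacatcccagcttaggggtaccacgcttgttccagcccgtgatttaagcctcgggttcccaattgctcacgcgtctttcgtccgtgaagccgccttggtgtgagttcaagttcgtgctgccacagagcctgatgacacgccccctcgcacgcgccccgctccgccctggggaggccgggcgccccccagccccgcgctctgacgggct
*Efemp2* (chr19:5473696-5473945, plus strand): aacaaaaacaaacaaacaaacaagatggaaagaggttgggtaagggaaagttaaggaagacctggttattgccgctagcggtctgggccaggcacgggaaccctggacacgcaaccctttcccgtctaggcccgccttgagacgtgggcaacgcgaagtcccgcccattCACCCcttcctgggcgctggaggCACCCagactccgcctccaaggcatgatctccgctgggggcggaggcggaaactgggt
The *Efemp2* window shown held CACCC 2 times and the *Fbln5* window shown did not hold it on either strand, while 52.0% of all 32851 windows of this length did. Among the windows not shown, a second one of *Fbln5* held it 1 time on either strand. Those of *Efemp2*, *Fbln1*, *Fbln2*, and *Fbn1* held it 2 or 3 times each, and that of *Efemp1* 0 times. The forkhead motif GTAAACA, searched on both strands because forkhead factors act downstream of Tie receptor signaling, was found in none of the 10 windows of the 6 genes and in 3.17% of all windows. TATAAA was likewise found in none of them and in 12.4% of all windows. These matches only describe the letters of the windows.

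Elastin transcripts were abundant in control LECs and nearly lost after combined Tie1/-2 deletion. *Eln* (chr5:134702593-134747323, minus strand, GENCODE M21 on GRCm38) was at 622 and 725 CPM in *Tie1* fl/fl and at 628 and 726 CPM in *Tie1* *Tie2* fl/fl LECs, a mean of 675 ± 57.8 CPM (SD, n = 4 plates). In *Tie1* iΔLEC LECs it was at 489.6 and 533 CPM, and in *Tie1* *Tie2* iΔLEC LECs at 61.7 and 68.2 CPM. Neither deletion group overlapped its control, but the *Tie1* iΔLEC plates were close to theirs. How many of all genes show no overlap was not counted, so the separation alone says little about *Eln*. In edgeR's quasi-likelihood test on counts summed per plate, the log2 fold change of *Eln* with Tie1/-2 deletion was -3.37 ± 0.22 (SE) with a Benjamini-Hochberg adjusted p = 0.000988. Within a table layout the level was 10.2-fold and 10.6-fold lower than on the control plate. With Tie1 deletion alone the log2 fold change was -0.38 ± 0.20, with an adjusted p = 1 in edgeR's test. The difference between the 2 deletions was itself past the threshold (-2.98 ± 0.29 on the log2 scale, adjusted p = 0.0139 in edgeR's test), but it passed in only 1 of 8 refits that each left out 1 plate. In these refits its adjusted p ran from 0.0452 to 0.104, and it passed only without the first *Tie1* *Tie2* iΔLEC plate.

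The fall was also seen well by well. Between 61.3% and 79.5% of LECs had *Eln* at 100 CPM or more on the 6 control and *Tie1* iΔLEC plates, but 14.2% and 17.8% did on the *Tie1* *Tie2* iΔLEC plates. The median LEC was at 291 to 537 CPM on the former and at 0 and 3.21 CPM on the latter. The 10 wells with the most *Eln* reads held 42.9% and 39.4% of all its reads on the *Tie1* *Tie2* iΔLEC plates, against 16.4% to 19.9% on the other plates. The remaining elastin reads were thus concentrated in few wells. Wells are not replicates, so these shares were not tested.

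**Figure D1:**
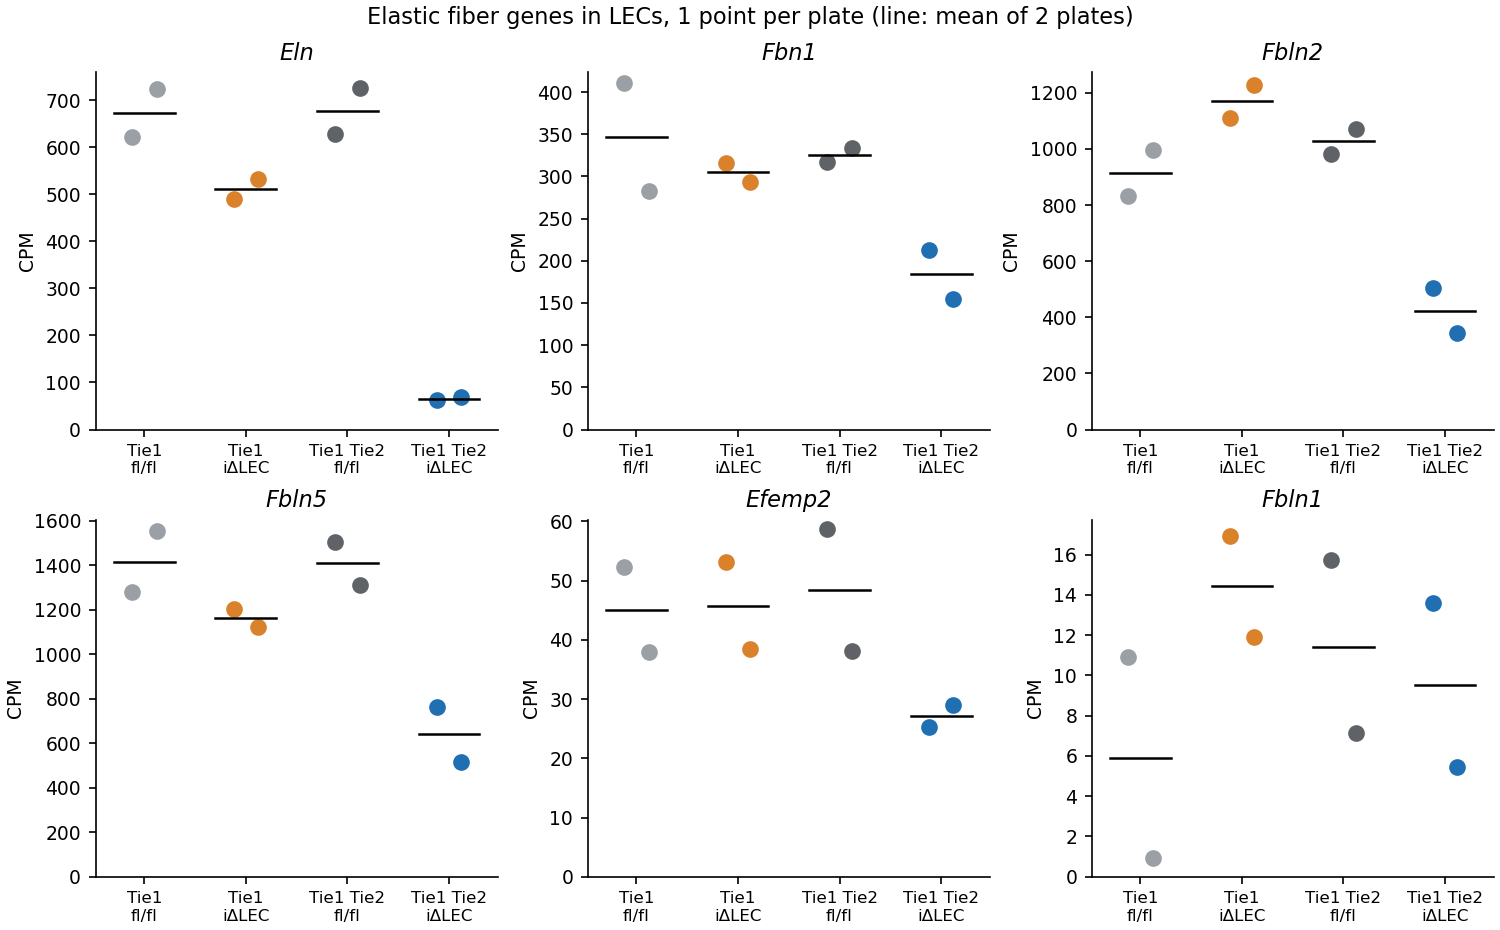
Levels of 6 elastic fiber genes in LECs, in CPM on linear axes that start at 0. Each point is 1 plate and each line the mean of 2 plates. For *Eln* the *Tie1* *Tie2* iΔLEC plates lie at 61.7 and 68.2 CPM and all other plates at 489.6 CPM or more, *Fbn1*, *Fbln2*, *Fbln5*, and *Efemp2* are lowest on the same 2 plates, and *Fbln1* overlaps between all groups. Of the 6 genes only *Eln* passed edgeR's test with Tie1/-2 deletion. How many of all genes are lowest on these 2 plates was not counted.

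Counted over the list, 1 of the 10 genes was called with Tie1/-2 deletion at an adjusted p below 0.05, where 229 of 19962 genes or 1.15% were called over all genes (60 higher and 169 lower). None of the 10 was called with Tie1 deletion, where 0.0% of the 19962 genes were called by edgeR, 870 genes had an unadjusted p below 0.05, and DESeq2 called 178. In the difference between the deletions 1 of the 10 was called (*Eln*), with 26 genes or 0.13% called over all genes. The median log2 fold change of the 10 genes was -1.18 with Tie1/-2 deletion and 0.20 with Tie1 deletion, beside 0.002 and 0.000 over all genes tested. Putting the genes without reads in 1 group at the limit that 3 counts allow left both medians as they were. All 10 passed the filter on low counts, but 4 of them (*Fbn2*, *Efemp1*, *Lox*, and *Loxl1*) did not exceed 5 CPM on any plate. In a sum over cells, fewer expressing cells and less RNA per cell cannot be told apart.

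The fibrillins form the microfibril scaffold. *Fbn1* (chr2:125300594-125507993, minus strand) was at 411 and 283 CPM in *Tie1* fl/fl, 316 and 294 CPM in *Tie1* iΔLEC, 317 and 334 CPM in *Tie1* *Tie2* fl/fl, and 213 and 155 CPM in *Tie1* *Tie2* iΔLEC LECs. The *Tie1* iΔLEC plates lay within the range of their controls, whereas both *Tie1* *Tie2* iΔLEC plates lay below all others. The log2 fold change with Tie1/-2 deletion was -0.80 ± 0.25 with an adjusted p = 0.286 in edgeR's test, so the decrease did not pass. *Fbn2*, the fibrillin of developing tissues, was at 2.96 CPM or less on every plate. It had no reads on the *Tie1* fl/fl plates and 282 on the *Tie1* iΔLEC plates, at least 95.2-fold higher against a floor of 3 counts over the group, of which 252 came from 1 plate and 88.9% of those from 10 wells. Its adjusted p was 1 in edgeR's test.

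The fibulins include the most abundant members in LECs. *Fbln5*, which binds both tropoelastin and integrins and brings elastin to the microfibrils, was at 1279 and 1554 CPM in *Tie1* fl/fl, 1204 and 1123 CPM in *Tie1* iΔLEC, 1506 and 1313 CPM in *Tie1* *Tie2* fl/fl, and 764 and 517 CPM in *Tie1* *Tie2* iΔLEC LECs. *Fbln2*, a fibulin of basement membranes and microfibrils, was at 834 and 995, 1110.1 and 1229, 983 and 1072, and 503 and 344 CPM in the same order. For both genes the *Tie1* *Tie2* iΔLEC plates were the lowest of the 8. The log2 fold change with Tie1/-2 deletion was -1.11 ± 0.26 for *Fbln5* (adjusted p = 0.128, edgeR's quasi-likelihood test, Benjamini-Hochberg adjusted) and -1.25 ± 0.26 for *Fbln2* (adjusted p = 0.0824, same test). DESeq2, run as an alternative, called both, along with *Eln* and *Efemp1*, and called 5.64% of all genes. With Tie1 deletion the 2 genes pointed in opposite directions without passing the test: the log2 fold change was -0.28 ± 0.26 for *Fbln5* and 0.37 ± 0.26 for *Fbln2*, each with an adjusted p = 1.

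*Efemp2* encodes fibulin-4, which binds lysyl oxidase and is required for elastic fibers in arteries and lung. It was at 52.2 and 38.0 CPM in *Tie1* fl/fl, 53.1 and 38.4 CPM in *Tie1* iΔLEC, 58.7 and 38.0 CPM in *Tie1* *Tie2* fl/fl, and 25.2 and 29.0 CPM in *Tie1* *Tie2* iΔLEC LECs. The *Tie1* *Tie2* iΔLEC plates lay below the others, but the log2 fold change of -0.83 ± 0.32 did not pass in edgeR's test (adjusted p = 0.407). The *Efemp2* reads were unevenly spread, with 50.7% to 69.1% of them in the top 10 wells of each plate. *Fbln1* was at 0.918 to 16.9 CPM with overlapping groups. *Efemp1*, encoding fibulin-3, was at 0.117 to 4.52 CPM on 6 plates and had no reads on the 2 *Tie1* *Tie2* iΔLEC plates, which is at least 130-fold lower than the 401 reads of the *Tie1* *Tie2* fl/fl plates against a floor of 3 counts over the group. Of these 401 reads, 366 came from the plate with raised fibroblast markers, and their part in this difference was not tested. The adjusted p of *Efemp1* was 0.179 in edgeR's test.

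Of the lysyl oxidases, transcripts of the members *Lox* and *Loxl1* were close to absent in LECs, but others of the wider list below were present. The control plates had *Loxl2* at 69.9 ± 5.69, *Loxl3* at 62.8 ± 5.37, and *Loxl4* at 2.96 ± 3.92 CPM (SD, n = 4). The *Tie1* iΔLEC plates had *Loxl2* at 58.5 and 47.1, *Loxl3* at 78.4 and 68.4, and *Loxl4* at 10.7 and 14.9 CPM. The *Tie1* *Tie2* iΔLEC plates had *Loxl2* at 57.9 and 53.4, *Loxl3* at 43.6 and 40.3, and *Loxl4* at 8.30 and 5.77 CPM. *Loxl4* was at 0.983 and 0.676 CPM in *Tie1* fl/fl and at 1.35 and 8.83 CPM in *Tie1* *Tie2* fl/fl LECs. DESeq2 and the fit without the filter called it higher with Tie1 deletion (1.06% and 0.874% of all genes), but edgeR's main test did not. *Lox* did not exceed 2.11 CPM on any plate and had 0 reads and 1 read on the *Tie1* *Tie2* iΔLEC plates. *Loxl1* did not exceed 4.16 CPM, which was its value on the plate with raised fibroblast markers. Neither was called with either deletion. Per kilobase of exon, a scale on which genes can be compared, the control plates had *Fbln5* at 204 ± 19.8, *Fbln2* at 152 ± 15.6, *Eln* at 83.4 ± 7.14, *Fbn1* at 27.7 ± 4.46, and *Efemp2* at 12.3 ± 2.74 CPM per kb (SD, n = 4), whereas *Lox* and *Loxl1* were at 0.180 ± 0.207 and 0.443 ± 0.552. The first 5 differed from each other by more than their spread. In *Tie1* *Tie2* iΔLEC LECs *Eln* was at 8.02 CPM per kb, below *Fbn1* at 15.2 and near *Efemp2* at 7.15 (means of 2 plates).

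**Figure D2:**
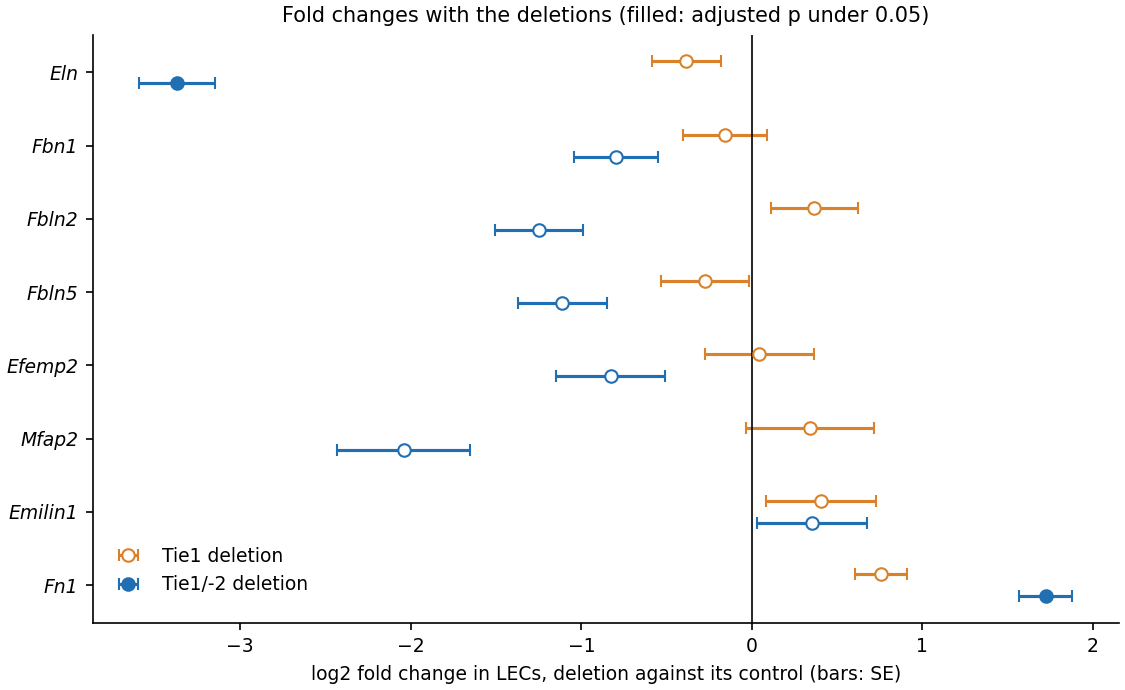
Log2 fold changes in LECs, each deletion against its own control, from edgeR's quasi-likelihood test (bars are SE). Filled points have an adjusted p below 0.05. Shown are 5 members above 10 CPM on every plate and 3 other elastic fiber genes. With Tie1/-2 deletion *Eln* at -3.37 and *Fn1* at 1.72 are filled, and no gene shown is filled with Tie1 deletion.

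A wider list held 20 other elastic fiber and microfibril genes. With Tie1/-2 deletion edgeR's test called 1 of the 20 higher and 0 lower, against 1.15% of all genes, and the median log2 fold change was -0.45. The count lower depended on the fit. It was 6 of 19 in DESeq2, 6 of 20 without the filter on low counts, and 3 of 20 in limma (5.64%, 3.89%, and 1.71% of all genes called). *Mfap2* was called lower in each of these and with the table layout as a term. The remaining alternatives called 0 or 1 lower. With Tie1 deletion edgeR's test called 0 of the 20 and the median was 0.15. DESeq2 called 3 of 18 higher there, with 1.06% of all genes. The gene called by edgeR with Tie1/-2 deletion was *Fn1*, encoding fibronectin, on which microfibrils assemble. It was at 1126 and 962 CPM in *Tie1* fl/fl, 1743 and 1734 CPM in *Tie1* iΔLEC, 1031 and 1073 CPM in *Tie1* *Tie2* fl/fl, and 3475 and 3395 CPM in *Tie1* *Tie2* iΔLEC LECs. Its log2 fold change with Tie1/-2 deletion was 1.72 ± 0.15 (adjusted p = 0.00294 in edgeR's test) and with Tie1 deletion 0.76 ± 0.15 (adjusted p = 0.677). *Emilin1*, which links elastin to anchoring filaments, was at 242 and 341, 368 and 401, 378 and 244, and 449 and 333 CPM in the 4 groups in that order, with overlap in the Tie1/-2 comparison and an adjusted p = 0.818. *Mfap5* did not exceed 3.72 CPM. *Mfap2*, encoding the microfibril protein MAGP-1, had the next lowest adjusted p of this list and did not pass: it was at 60.6 and 115 CPM in *Tie1* *Tie2* fl/fl and at 18.4 and 24.0 CPM in *Tie1* *Tie2* iΔLEC LECs (log2 fold change -2.04 ± 0.39, adjusted p = 0.0594 in edgeR's test). It was chosen after its values were seen.

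Markers of other cells were set beside these results. Of the chondrocyte list only *Comp* exceeded 1 CPM on the *Tie1* *Tie2* plates. *Comp* was at 273 to 559 CPM on the 4 control plates and at 5.44 and 9.98 CPM on the *Tie1* *Tie2* iΔLEC plates. On these plates *Col2a1*, *Acan*, *Col9a1*, and *Cnmd* stayed at 0.629 CPM or less. The first *Tie1* iΔLEC plate had *Col2a1* at 3.02, *Col9a1* at 1.30, *Cnmd* at 0.576, and *Acan* at 0.235 CPM. That plate also held 252 of the 282 *Fbn2* reads of its group, and the part of these markers in the *Fbn2* reads was not tested. The 5 smooth muscle markers summed to 5.77 to 34.7 CPM and the 5 keratinocyte markers to 10.7 to 62.9 CPM over the 8 plates. The 6 pericyte markers summed to 167 and 140.2 CPM in *Tie1* *Tie2* iΔLEC LECs and to 1.90 to 46.2 CPM elsewhere. On the *Tie1* *Tie2* iΔLEC plates *Kcnj8* alone made up 151 and 134 CPM and *Abcc9* 15.9 and 5.66 CPM. *Abcc9* was at 0.293 to 10.9 CPM on the other plates. *Rgs5*, *Pdgfrb*, *Notch3*, and *Cspg4* were below 1 CPM on the *Tie1* *Tie2* iΔLEC plates. When only the 2290 LECs with fibroblast markers at 100 CPM or less were used, *Eln* was called with Tie1/-2 deletion, where 1% of 19419 genes were. This filter kept 131 of 334 LECs on the first *Tie1* *Tie2* fl/fl plate and 315 of 340 on the second. On the *Tie1* *Tie2* iΔLEC plates it kept 349 of 365 and 313 of 359. The part of these markers in the change was not tested.

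Levels also differed between LEC types, which were named from clusters of the same wells and are therefore described without a test. The members were left out of the clustering. Capillary-like LECs (113 wells), collector-like LECs (409 wells), and valve-like LECs (392 wells) were distinguished, and the other LECs fell into clusters without such a name. Capillary markers were also raised in some of these clusters, as *Reln*, *Slco2b1*, and *Pcsk6* in a cluster of 455 wells led by *Esm1*. The capillary-like wells may therefore be only a part of the capillary LECs. On the control plates *Eln* was at 808 ± 121 CPM in capillary-like, 707 ± 113 CPM in collector-like, and 433 ± 173 CPM in valve-like LECs (SD, n = 4), and collector-like LECs were above valve-like LECs on 8 of 8 plates. Capillary-like and collector-like LECs did not differ beyond their spread. *Fbn1* was at 413 ± 161, 350.2 ± 64.5, and 191 ± 24.7 CPM in the same order, and collector-like LECs were again above valve-like LECs on 8 of 8 plates. *Fbln5* was at 1636 ± 116, 1474 ± 111, and 670.4 ± 58.0 CPM, with collector-like above valve-like LECs on 8 of 8 plates and capillary-like above collector-like LECs on 5 of 8. *Fbln2* was instead highest in valve-like LECs. It was at 960 ± 157 CPM in capillary-like, 755 ± 187 CPM in collector-like, and 1551 ± 297 CPM in valve-like LECs. Valve-like LECs were above capillary-like LECs on 8 of 8 plates and above collector-like LECs on 7. Valve-like LECs were of 2 kinds, and in the cluster led by *Hbegf* and *Hapln2* *Eln* was at only 171 ± 35.9 CPM on the control plates, against 539 ± 232 CPM in the cluster led by *Wnt7a* and *Irx3*.

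**Figure D3:**
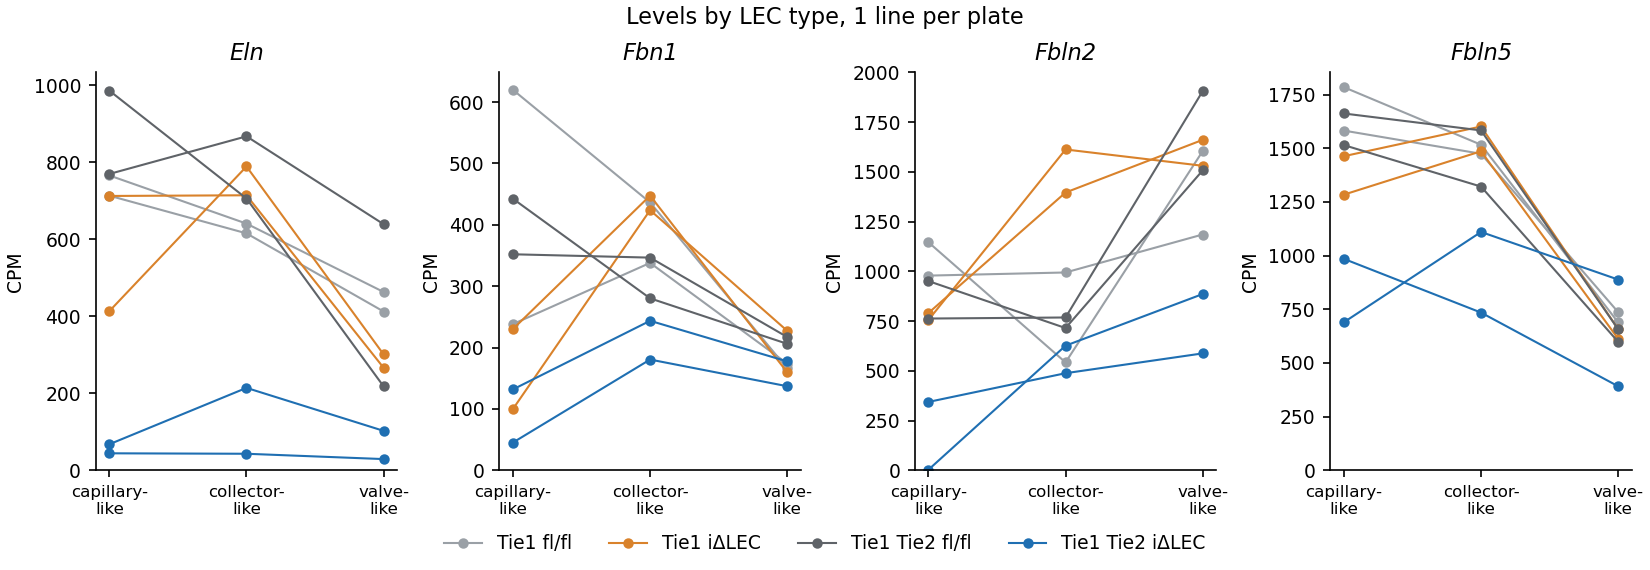
Levels of 4 members by LEC type, in CPM on linear axes that start at 0, with 1 line per plate. Capillary-like values of the second *Tie1* fl/fl plate and of the second *Tie1* *Tie2* iΔLEC plate rest on 6 wells each. *Eln*, *Fbn1*, and *Fbln5* are higher in collector-like than in valve-like LECs on 8 of 8 plates, and *Fbln2* is higher in valve-like than in capillary-like LECs on 8 of 8 plates.

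Low elastin after Tie1/-2 deletion was seen in capillary-like, collector-like, and valve-like LECs. In collector-like LECs *Eln* was at 42.9 and 214 CPM on the *Tie1* *Tie2* iΔLEC plates, which held 14 and 19 such wells, and at 615 to 867 CPM on the 4 control plates. Its log2 fold change was -2.67 ± 0.58 with an adjusted p = 0.148 in edgeR's test, and 0 of the members were called among collector-like LECs, where 0.314% of genes were. In valve-like LECs *Eln* was at 29.0 and 102 CPM in *Tie1* *Tie2* iΔLEC and at 218 to 639 CPM in control LECs (log2 fold change -2.71 ± 0.61, adjusted p = 0.202 in edgeR's test), and 0 members were called, where 0.122% of genes were. The groups did not overlap in either type, but the decrease did not pass the test, and the share of all genes without overlap was not counted. Of the valve-like wells of *Tie1* *Tie2* iΔLEC plates all but 1 came from the *Wnt7a* cluster, and in that cluster alone, a fit added after the data were seen, the log2 fold change of *Eln* was -3.17 ± 0.63 (adjusted p = 0.181, with 0.0562% of genes called). No member was called with Tie1 deletion in capillary-like, collector-like, or valve-like LECs, where 0.0% of genes were called in each. For capillary-like LECs the *Tie1* fl/fl arm of that fit was 1 plate, since the other held 6 such wells, so the absence of calls there says little.

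In capillary-like LECs 2 of 7 members tested were called with Tie1/-2 deletion, *Eln* and *Fbln2*, where 0.358% of genes were called. Plates with fewer than 10 such wells were left out, so that 2 control plates were compared with 1 *Tie1* *Tie2* iΔLEC plate of 14 wells, which the fit assumed to vary like the plates of the groups that kept 2. These calls therefore have no replicate of the deletion behind them. *Eln* was at 986 and 769 CPM on the *Tie1* *Tie2* fl/fl plates and at 44.0 CPM on that plate (log2 fold change -4.43 ± 0.71, adjusted p = 5.12e-05 in edgeR's test), and at 67.6 CPM in the 6 wells of the plate left out. *Fbln2* was at 951 and 763 CPM on the control plates and at 2.69 CPM on that plate, but at 344 CPM in the 6 wells left out, so its value (log2 fold change -8.41 ± 0.81, adjusted p = 3.14e-11 in edgeR's test) rests on 14 wells of 1 plate and its call was lost at a Leiden resolution of 2.0. In the 4 large clusters without a type name, fitted after the data were seen, *Eln* was called in each, with log2 fold changes of -3.87 in the cluster led by *Esm1* (adjusted p = 0.00522, with 0.175% of genes called), -3.19 in that led by *L1cam* (0.0163, with 0.164%), -4.30 in that led by *Edn1* (0.00245, with 0.314%), and -3.79 in that led by *Iqgap2* (0.00111, with 0.138%), all by edgeR's test. It was the only member called in any of these 4 clusters.

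Fitted changes of the fibulins with Tie1/-2 deletion spanned a range over the LEC types. The log2 fold change of *Fbln5* was -1.52 ± 0.29 in the *Esm1* cluster and -1.55 ± 0.30 in the *L1cam* cluster, -0.66 ± 0.27 in collector-like LECs, and 0.08 ± 0.39 in valve-like LECs. That of *Fbln2* was -0.42 ± 0.34 in collector-like and -1.17 ± 0.29 in valve-like LECs. None of these values passed the test within its type (adjusted p = 0.0839 to 1 for *Fbln5* and 0.278 and 0.717 for *Fbln2* in edgeR's test), and differences between types were not tested.

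The droplet libraries widened the view to other skin cells. They held 4685 and 4331 barcodes, of which 3438 (IgG) and 2963 (Ang2 Ab) cells were kept, and 5 barcodes occurred in both libraries, 2 of them among kept cells. Both libraries are labeled male, but *Xist* was detected in 55.4% and 38.8% and Y-linked genes in 34.3% and 45.02% of kept cells, so cells of both sexes were present in each. LECs numbered 1320 and 749, with 18094288 and 9757438 unique molecular identifiers (UMIs). With 1 library per treatment nothing was tested, and intervals (95%, exact) cover counting error only.

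By cell type, LECs were not the cells with the most elastin transcripts. *Eln* was at 14118 CPM over both libraries in a chondrocyte-like cluster of 180 cells, at 5312 CPM in an arterial endothelial-like cluster led by *Gkn3*, and at 1688 CPM in venous endothelial-like cells. It was at 443 CPM in LECs, 254 CPM in capillary blood endothelial-like cells, 309 CPM in pericyte-like cells, and 296 CPM in smooth muscle-like cells. Keratinocyte-like cells, which should lack elastin transcripts, were at 101 CPM (84.2 to 120.2). Free RNA can give such a level, but its part was not tested. The chondrocyte-like cluster also carried the 5 fibroblast markers, and at a finer resolution it split into 68 chondrocyte-like cells at 19911 CPM and 112 fibroblast-like cells at 6653 CPM. Within LECs it was at 546 CPM in capillary-like, 453 CPM in collector-like, and 249 CPM in valve-like LECs, lowest in the valve-like cells as on the control plates.

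**Figure D4:**
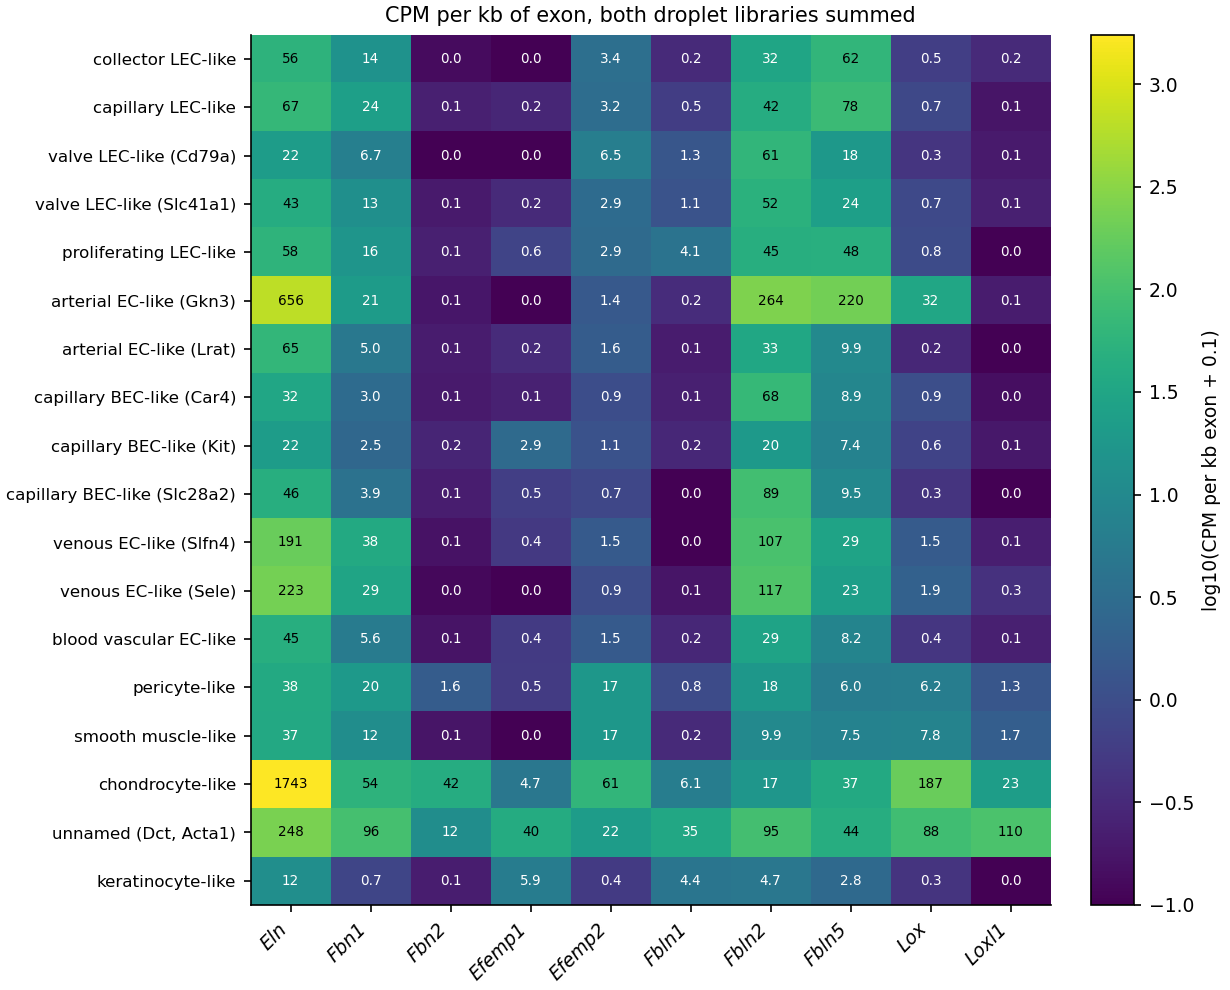
Levels of the 10 genes in 18 of the 23 droplet clusters, as CPM per kb of exon over both libraries (numbers in the cells, color on a log10 scale after adding 0.1). UMIs count molecules, not reads along a transcript as on the plates. Values can therefore be compared between clusters for 1 gene, but not between genes. The clusters left out are 3 of low depth, Schwann cell-like, and leukocyte-like cells. *Eln* is highest in the chondrocyte-like cluster, *Fbln2* and *Fbln5* in arterial EC-like cells led by *Gkn3*, and *Lox*, *Fbn2*, and *Efemp2* in the chondrocyte-like cluster, whereas *Lox* and *Loxl1* are at 0.822 CPM per kb or less in every LEC cluster.

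The other members divided between endothelial and stromal cells. *Fbln2* at 1679 CPM and *Fbln5* at 1524 CPM peaked in the *Gkn3* arterial cluster, which was also the only endothelial cluster with *Lox* above 10 CPM, at 152 CPM. *Lox* at 891 CPM, *Fbn2* at 549 CPM, and *Efemp2* at 233 CPM peaked in the chondrocyte-like cluster. A cluster of 86 cells led by *Dct* and *Acta1*, in which all 5 fibroblast markers were raised and which was left unnamed, had the most *Fbn1* at 1167 CPM, *Loxl1* at 363 CPM, *Fbln1* at 155 CPM, and *Efemp1* at 82.1 CPM. It also had the most *Mfap5*, at 781 CPM. In LECs *Lox*, *Loxl1*, *Fbn2*, *Efemp1*, and *Fbln1* were at 3.54 CPM or less in both libraries.

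Elastin was lower in LECs of the Ang2 Ab library. *Angpt2*, which encodes Ang2, was at 139 CPM in IgG and at 866 CPM in Ang2 Ab LECs, so the libraries differ in the targeted ligand's own transcript. *Eln* was at 547 CPM (536 to 558) in IgG LECs and at 249 CPM (239 to 259) in Ang2 Ab LECs, a ratio of 0.456 (0.436 to 0.477), and it was detected in 97.0% and 78.0% of LECs. In keratinocyte-like cells, as the background, it was at 121 and 76.1 CPM and detected in 76.9% and 51.7% of cells, at median depths of 10226 and 12288 UMIs beside 12265.5 and 11440 in LECs. Of the 5 members with at least 100 UMIs in LECs, 1 (*Eln*) was past 2-fold lower, as were 1.02% of 10808 genes. The others were at 217 and 168 CPM (*Fbn1*, ratio 0.772), 278 and 219 CPM (*Fbln2*, 0.789), 415 and 372 CPM (*Fbln5*, 0.896), and 13.8 and 13.3 CPM (*Efemp2*, 0.964, interval 0.774 to 1.197). *Fn1* went the other way, from 791 CPM in IgG to 1405 CPM in Ang2 Ab LECs (ratio 1.77). This rise was not seen in every LEC type: the log2 ratio of *Fn1* was 1.255 in capillary-like, 1.305 in collector-like, and -0.218 in valve-like LECs. The fibroblast markers summed to 74.5 and 59.9 CPM and the chondrocyte markers to 53.8 and 32.0 CPM in LECs of the 2 libraries, and their part in these ratios was not tested. In LECs without any UMI of the fibroblast markers the log2 ratio of *Eln* was -1.09, beside -1.13 in all LECs. These LECs were not selected on the chondrocyte markers.

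All LEC clusters shared this difference. *Eln* was at 715 and 285 CPM in capillary-like LECs (ratio 0.398, 0.369 to 0.428), 533 and 273 CPM in collector-like LECs (ratio 0.513, 0.479 to 0.549), and 314 and 158 CPM in valve-like LECs (ratio 0.504, 0.444 to 0.570). Past 2-fold lower were 1 member in capillary-like LECs (1.15% of genes), 0 in collector-like LECs (0.981%), and 0 in valve-like LECs (0.161%). Outside LECs the ratio was 1.08 (1.05 to 1.12) in the *Gkn3* arterial cluster and 1.05 (1.03 to 1.07) in the chondrocyte-like cluster, the cells with the most *Eln*, and 0.756 (0.723 to 0.789) in venous endothelial-like cells. Capillary blood endothelial-like cells, at 334 and 183 CPM, had a ratio of 0.548 (0.509 to 0.590), which pools 3 clusters. The cluster led by *Kit* and *Prnd* was at 0.449 (0.381 to 0.529), as low as LECs, and those led by *Car4* and *Slc28a2* were at 0.621 (0.563 to 0.684) and 0.562 (0.479 to 0.658). Keratinocyte-like cells, taken as the background, had a log2 ratio of -0.665. A lower *Eln* level in the Ang2 Ab library was therefore not limited to LECs.

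**Figure D5:**
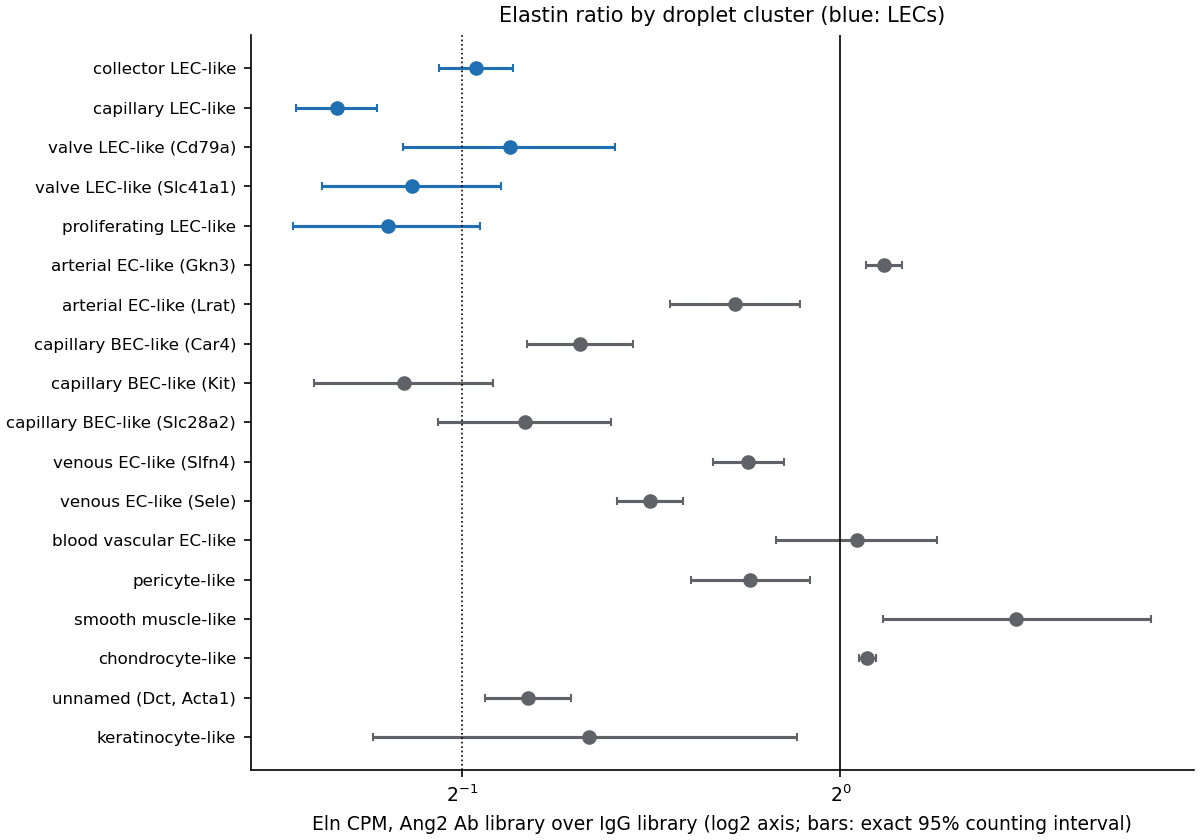
Ratio of *Eln* CPM in the Ang2 Ab library to that in the IgG library, by droplet cluster, on a log2 axis (bars are exact 95% counting intervals, 1 library per treatment). The 5 LEC clusters, in blue, lie between 0.398 and 0.546, and the arterial EC-like cluster led by *Gkn3* and the chondrocyte-like cluster lie just above 1. The dotted line marks a 2-fold lower level.

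Genes with the most similar pattern over the 23 droplet clusters were listed for each member by Pearson correlation of log2(CPM + 1), searched over 13443 genes as a description, since the clusters share 2 libraries. *Eln* was most like *Cytl1* (0.873), *Ecrg4* (0.835), and *Gm16070* (0.825), and *Fbln5* most like *Fhl1* (0.909), *Fstl1* (0.888), and *Rfk* (0.868). *Fbln2* was most like *Fam171a1* (0.859) and *Fbn1* most like *Reck* (0.846). Among the stromal members, *Loxl1* was most like *Twist2* (0.973), *Fbn2* most like *Pamr1* (0.951), *Lox* most like *Scara3* (0.931), *Efemp2* most like *Nenf* (0.908), *Efemp1* most like *Sfrp1* (0.907), and *Fbln1* most like *Aff3* (0.887). No member was among the 3 genes most like another member.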

How the data were processed

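Single LECs were measured on 8 Smart-seq plates and sorted CD31+ cells in 2 droplet libraries, all from mouse ear skin. The deposited values are raw counts: reads per gene and well for the plates, which the authors aligned with TopHat2 2.1.1 to GRCm38 and counted with featureCounts, and UMIs per gene and cell for the droplets, which per the labels came from Cell Ranger 2.1.1. The members and gene lists were chosen with earlier results of these data known. The text names all 10 members and the gene most like each member, with the 3 most alike for *Eln* and *Fbln5*. It gives 20 other elastic fiber genes by counts. Of these 20, values are given for the gene called in edgeR's main test and for *Emilin1* and *Mfap5*. Values are also given for *Mfap2*, *Loxl2*, *Loxl3*, and *Loxl4*, which were chosen after their values were seen.

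The plate tables were joined by gene name into 42600 genes, which held 95.7% to 97.01% of the counts. Wells with at least 1000 genes and cells with at least 500 genes and at most 10% mitochondrial counts were clustered in scanpy 1.11.5 (2000 variable genes, 30 principal components, 15 neighbors, Leiden resolution 1.0) without the members and the other elastic fiber genes. Clusters were named from marker lists. Plate clusters that took the name of another cell type by these markers were removed. Of 3026 wells clustered, these were 254 wells of low depth with fibroblast and smooth muscle markers raised, and 25 led by keratins. The 254 included 4 and 16 wells of the *Tie1* *Tie2* iΔLEC plates and 24 to 72 of each other plate. This left 2747 LECs, more than the study's text gives. Scrublet marked 20 and 2 droplet cells, too few to have worked, and no doublets were removed.

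Counts were summed per plate over the LECs and compared by the quasi-likelihood test of edgeR 4.0.16 after filterByExpr and TMM scaling, with Benjamini-Hochberg adjusted p over all genes tested (threshold 0.05) and the 8 plates in 1 fit, after the step had been tested on simulated data. Plates with fewer than 10 wells of an LEC type were left out of its fit. DESeq2 1.42.0 and limma 3.58.1 were alternatives. Levels are CPM. Nothing states that plates came from separate animals, so p-values measure the spread between these plates, and an exact permutation test of 2 plates against 2 could not go below 0.333. Droplet ratios are CPM ratios of genes with at least 100 UMIs, with exact 95% intervals that cover counting error only.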

Additional observations from a re-analysis of the deposited data

Results flagged for a closer look

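The change of *Eln* differed between the deletions. Its log2 fold change was -3.37 with Tie1/-2 deletion and -0.38 with Tie1 deletion, a difference of -2.98 ± 0.29 with an adjusted p = 0.0139 in edgeR's quasi-likelihood test, Benjamini-Hochberg adjusted. All *Tie1* *Tie2* plates were labeled male, whereas each *Tie1* group had 1 female and 1 male plate. Between the male *Tie1* plates alone the log2 ratio of *Eln* (deletion over control, CPM) was -0.44 and between the female plates -0.35. In the male *Tie1* *Tie2* pairs it was -3.35 and -3.41. In the *Tie1* groups sex goes with table layout, so they cannot be told apart there. The part of sex was not tested. Over 10 other alternatives the adjusted p did not exceed 0.029, but in 7 of 8 refits that left out 1 plate it was above 0.05, with log2 differences from -3.19 to -2.82.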

How the results depend on the processing

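*Eln* was called with Tie1/-2 deletion in 11 of 11 alternatives that kept every plate of this contrast (highest adjusted p 0.00878, each in its own test). Their log2 fold changes ran from -3.41 to -3.32. In 8 refits without 1 plate each, the log2 fold change ran from -3.46 to -3.28. Refits without 1 of the 4 plates of this contrast left 1 plate in a group. The others of these 8 kept all plates of the contrast and so say little about its dependence on a plate. The number of members called with Tie1/-2 deletion, 1 in edgeR's test, was 5 without the filter on low counts (*Efemp1*, *Eln*, *Fbln2*, *Fbln5*, and *Lox*), 4 in DESeq2, and 3 with the table layout as a term or with limma on the mean CPM per well (*Eln*, *Fbln2*, and *Fbln5*). These fits called 3.89%, 5.64%, 1.18%, and 1.71% of all genes. Leaving out 1 plate gave 1 to 3, with 3 only without *Tie1* *Tie2* iΔLEC replicate 1. With Tie1 deletion it was 1 (*Fbn2*) without the filter and in DESeq2, which called 0.874% and 1.06% of all genes. In the difference it was 3 in both (2.07% and 2.42% of all genes), and 0 to 1 without 1 plate. In capillary-like LECs it was 1 (*Eln*) at Leiden resolution 2.0 (0.128% of all genes). In collector-like LECs DESeq2 called 1 (*Eln*, with 6.64% of all genes), and leaving out 1 plate gave 0 to 1, with 1 without either *Tie1* *Tie2* iΔLEC plate. In valve-like LECs DESeq2 called 3 (*Eln*, *Fbln1*, and *Fbln2*, with 3.43% of all genes). *Fbln2* and *Fbln5* each passed in 5 of 19 alternatives with Tie1/-2 deletion, and *Fbn1* and *Efemp2* in 0 of 19.

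With Tie1 deletion the log2 fold change of *Fbn1* turned to 0.05 without *Tie1* fl/fl replicate 1 (-0.33 to 0.05 without 1 plate each), and that of *Efemp2* to -0.26 with limma, -0.10 without *Tie1* fl/fl replicate 2, and -0.16 without *Tie1* iΔLEC replicate 1 (-0.16 to 0.22 without 1 plate each). Over all genes the number called with Tie1/-2 deletion was 229 in edgeR's test, 1187 without the filter, 1016 in DESeq2, and 78 to 219 without 1 plate. The number called with Tie1 deletion was 0, 267, and 178 in the first 3 of these. The causes were not tested. Among compared groups, the sample titles shared replicate numbers only between the *Tie1* fl/fl and *Tie1* iΔLEC plates, where a number also marks sex and table layout. The titles number the *Tie1* *Tie2* plates differently, and their numbers here are names only. For the *Tie1* fl/fl and *Tie1* iΔLEC plates, the correlation of the deviations of same-numbered plates was 0.108 over 19962 genes, from only 2 pairs. The fit of these plates with a replicate block called 0 members and 0 genes. No capillary-like cluster was found at resolution 0.5, and refits of that type that emptied a group gave no value. In droplet LECs the number past 2-fold stayed 1 in 8 of 8 alternatives, 1 of them (without the *Cd79a* cluster) chosen after seeing the data. The droplets lack replicates, and levels under 5 CPM often rest on few wells. An exception is the first *Tie1* *Tie2* fl/fl plate, where *Loxl1* and *Efemp1* had reads in 130 and 104 of 334 LECs.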
